A study of Mus musculus with 2 samples.

Results

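The genes described here are those of the DNA methylation machinery: the methyltransferases Dnmt1, Dnmt3a and Dnmt3b, the cofactors Dnmt3l and Uhrf1, and the methyl-CpG-binding domain genes Mbd1, Mbd2, Mbd3 and Mbd4. They were chosen by name, with earlier results of these data known. All probe sets annotated to 1 of these genes alone were taken, which gave 21 probe sets for 9 genes, among 20380 single-gene probe sets for 12393 genes on the array. They were measured in E14tg2a, a mouse embryonic stem cell line. One stably transfected clone carried a plasmid for a short hairpin RNA against Dab2 (plasmid shDAB2-285, clone 4), and the other carried the vector control plasmid (clone 9, ES-V9). Both clones are single picks from a transfection, were kept undifferentiated in serum with leukaemia inhibitory factor (LIF) and received no further treatment. Each was read on 1 Affymetrix mouse 430A array, so a difference between the arrays cannot be told apart from a difference between clones or between cultures, no p-value can be given, and the precision is limited by the number of arrays. Values are RMA expression values on the log2 scale, and a difference is always the shDAB2 clone minus the vector clone.

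DNA methylation in mammals is set on CpG dinucleotides by DNMT3A and DNMT3B, which methylate new sites. DNMT3L has no catalytic activity of its own and assists both enzymes, and embryonic stem cells are among the few cells that express it strongly. After replication, UHRF1 recognises hemi-methylated CpGs and brings DNMT1 to copy the mark onto the new strand. MBD1, MBD2 and MBD4 bind methylated CpGs. MBD3 lacks strong binding to methylated CpGs, and it and MBD2 are alternative subunits of the NuRD deacetylase and remodelling complex. Serum-grown mouse embryonic stem cells carry a highly methylated genome but can survive without these enzymes.

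The promoters of the de novo group are shown first, because CpGs are what its enzymes act on. The lines give the 250 bases upstream of annotated transcript starts, numbered along the gene's strand, 5′ to 3′ on the gene's strand, from RefSeq (GRCm38.p6), in lower case with each CpG in capitals. The array was not mapped to these starts, so which start the measured transcripts used is not known here.
Dnmt3a, start 2 (chr12:3806910-3807159, plus strand): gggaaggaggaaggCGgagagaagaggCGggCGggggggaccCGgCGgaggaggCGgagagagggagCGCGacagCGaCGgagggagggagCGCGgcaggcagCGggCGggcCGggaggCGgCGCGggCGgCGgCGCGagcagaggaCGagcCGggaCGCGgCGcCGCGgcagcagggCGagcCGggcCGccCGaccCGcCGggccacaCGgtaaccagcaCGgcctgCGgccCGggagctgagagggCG
Dnmt3a, start 3 (chr12:3891494-3891743, plus strand): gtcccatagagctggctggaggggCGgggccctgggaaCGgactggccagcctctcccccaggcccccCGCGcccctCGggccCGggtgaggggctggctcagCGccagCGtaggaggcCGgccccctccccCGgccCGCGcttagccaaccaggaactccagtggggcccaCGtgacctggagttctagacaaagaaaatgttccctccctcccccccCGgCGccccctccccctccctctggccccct
Dnmt3b (chr2:153649199-153649448, plus strand): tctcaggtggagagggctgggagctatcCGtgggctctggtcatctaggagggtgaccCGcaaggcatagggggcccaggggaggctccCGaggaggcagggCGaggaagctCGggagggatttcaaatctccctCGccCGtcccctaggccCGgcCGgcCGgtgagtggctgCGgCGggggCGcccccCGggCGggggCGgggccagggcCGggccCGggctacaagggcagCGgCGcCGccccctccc
Dnmt3l, start 1 (chr10:78042037-78042286, plus strand): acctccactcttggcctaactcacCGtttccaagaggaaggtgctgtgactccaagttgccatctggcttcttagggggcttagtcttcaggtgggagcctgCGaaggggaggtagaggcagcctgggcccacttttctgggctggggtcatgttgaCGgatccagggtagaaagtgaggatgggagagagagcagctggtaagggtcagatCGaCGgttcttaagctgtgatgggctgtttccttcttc

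The 250 bases above the second Dnmt3a start held 40 CpGs, a number reached by 1.31% of the 32851 promoters in the table, whose median was 6. The first Dnmt3a start, whose window overlaps that of the second, had 38, and the third had 15, a number reached by 27.3% of promoters. The Dnmt3b promoter held 21, reached by 16.3%. The 3 starts of Dnmt3l had 5, 4 and 3 CpGs, which 55.6%, 62.2% and 71.0% of promoters reached, so they lay a little below the median promoter. Of the maintenance genes, Uhrf1 had 30 CpGs above its second start and 10 above its first, and Dnmt1 had 2, 7 and 26 above its starts in order. The window above a later start can lie within the transcript of an earlier one, and so hold exon or intron sequence. The Dnmt1 window with 26 lies downstream of the second start. Mbd4 had 22 and Mbd3 had 14. The 6-letter GC box GGGCGG, searched on both strands and itself holding a CpG, stood 5, 4 and 1 times above the Dnmt3a starts in order, 3 times above Dnmt3b and 0, 2 and 0 times above the Dnmt3l starts. At least 1 copy was present in 32.7% of all promoters. These are descriptions of the reference sequence, and a link between CpG content and the differences between the clones was not tested. In all 7 of the 9 genes are covered, since no promoter of Mbd1 or Mbd2 is used here.

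Dnmt3a and Dnmt3b, the de novo enzymes, read higher in the shDAB2 clone, whereas their cofactor Dnmt3l read lower. Among the maintenance genes, Uhrf1 read higher and Dnmt1 lower. Mbd3 read higher, Mbd2 and Mbd4 were nearly level, and Mbd1 was too dim to compare. Only the Dnmt3a difference passed 1.5-fold on a gene's brightest probe set.

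A gene was represented by its brightest probe set and counted where at least 1 array read 6.62 or more on it. That value is the median over both arrays and is named the floor here. By that rule 8 of the 9 genes and 13 of the 21 probe sets were above the floor, and Mbd1 was not. Over the array 7269 of 12393 genes and 10932 of 20380 single-gene probe sets were. Later counts of genes above the floor are to be read against these. Differences were counted past 2 limits, 0.32 on the log2 scale (the lower limit) and 1.5-fold. At the lower limit, 2 of the 8 genes were higher (Dnmt3a and Dnmt3b), where 4.91% of the 7269 genes above the floor were, and 0 of 8 were lower, where 6.07% were. At 1.5-fold, 1 of 8 was higher (Dnmt3a) against 0.578% of all genes, and 0 of 8 lower against 1.62%. Dnmt3l, at -0.317, fell just short of the lower limit, whose exact value is 0.322, and Mbd3 was next at 0.305. The median difference of the 8 genes was 0.17, over 5 that read higher and 3 that read lower, beside 0.0006 over all genes above the floor. Of those 7269 genes 3636 read higher and 3585 lower, the base for the same counts of the lists below. With so few genes, these counts are a description only.

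The scale for these differences comes from genes with more than 1 probe set, the only repeat measurement at hand. Over 2502 genes with at least 2 probe sets above the floor, the SD of the difference read by 1 probe set was 0.11, which covers probe noise and transcript variants but not the spread between cultures or clones. The spread of differences between genes was wider for bright probe sets than for dim ones. Among the 500 probe sets closest in mean signal the SD was 0.22 around the brightest Dnmt3a probe set, 0.30 around that of Dnmt3b and 0.28 around that of Dnmt3l.

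**Figure D1:**
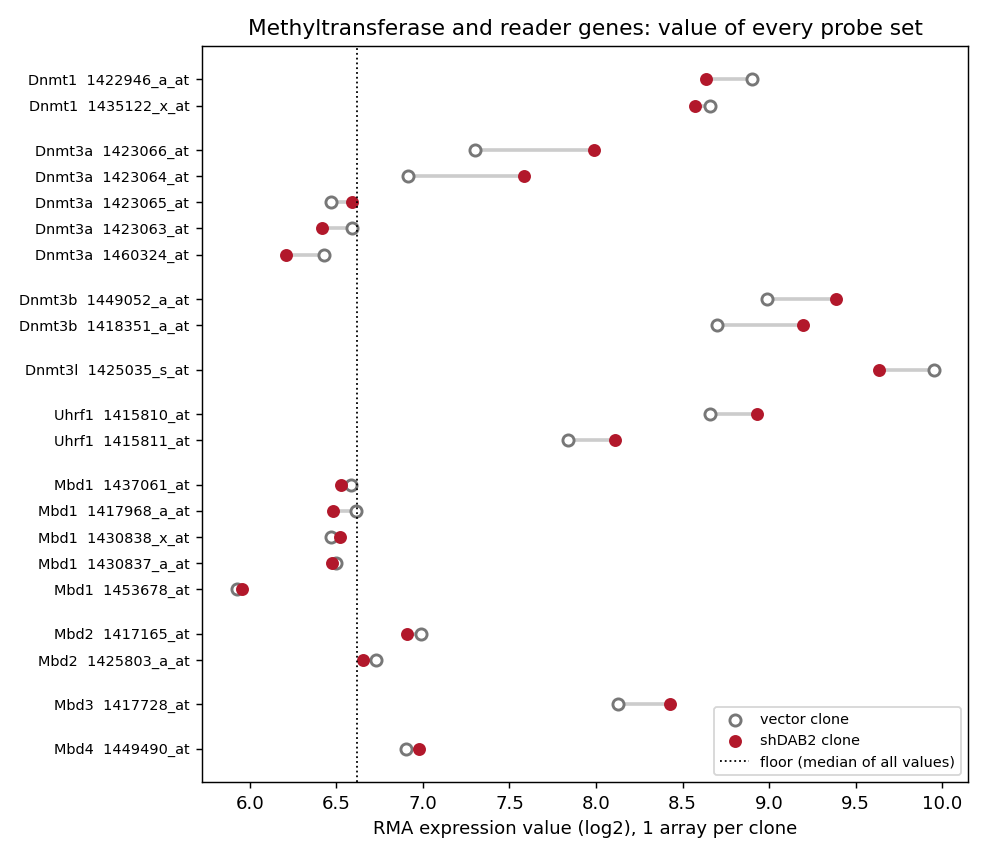
Expression value (log2, x axis) of each of the 21 probe sets in the vector clone (open circles) and the shDAB2 clone (filled circles), 1 array each, with the floor of 6.62 as a dotted line. The brighter Dnmt3a probe sets and both Dnmt3b probe sets lie to the right in the shDAB2 clone, those of Dnmt3l and Dnmt1 to the left, and all 5 of Mbd1 lie below the floor.

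Dnmt3a, a de novo methyltransferase, gave the largest difference of the group. Its brightest probe set (1423066_at) read 7.30 with the vector and 7.99 with the hairpin, and the next (1423064_at) read 6.91 and 7.58. Both were higher in the shDAB2 clone, by 0.69 (1.61-fold) and 0.67 (1.59-fold), which is 3.07 and 3.35 times the SD of probe sets of like signal. On its brightest probe set Dnmt3a ranked 19 from the top of 7269 genes.

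The other 3 Dnmt3a probe sets were below the floor on both arrays and did not give this difference. Probe set 1423065_at read 6.47 with the vector and 6.59 with the hairpin, a difference of 0.12. Probe set 1423063_at read 6.59 and 6.42, a difference of -0.17, and 1460324_at read 6.43 and 6.21, a difference of -0.22. The last is the opposite direction, at -2.86 times the SD of 0.08 among probe sets of similar dimness. Like the Mbd1 probe sets described below, these 3 are too dim for a difference of the gene to be measured on them. So 3 of the 5 probe sets were higher and 2 lower, and their mean was 0.22, which is under the lower limit.

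A gap of 0.90 between the highest and lowest Dnmt3a difference is wide for a gene on these arrays. Of 543 genes with at least 4 probe sets, at least 2 of them above the floor, 2 (0.368%, Dnmt3a included) had a gap that large, and the median gap was 0.24. Dnmt3a has several transcript forms. The positions of the probe sets on them were not used here, so whether the probe sets read different transcripts was not tested. The comparison of gaps was chosen after the Dnmt3a values were seen. The gap runs from the large difference of the brightest probe set to that of a probe set below the floor. It is therefore not separate from the Dnmt3a difference given above.

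Dnmt3b, the other de novo enzyme and the one most tied to the early embryo, read 8.99 with the vector and 9.38 with the hairpin on its brighter probe set. The second probe set read 8.70 and 9.19. Both were higher in the shDAB2 clone, by 0.40 (1.32-fold) and 0.49 (1.41-fold), and the gap of 0.10 between them is smaller than the probe-set SD. Dnmt3b ranked 196 from the top of 7269 genes, and 2.68% of genes had a more positive difference. Its brighter probe set lay at only 1.31 times the SD of probe sets of like signal, which is not far outside their spread. The IDs of both Dnmt3b probe sets end in _a_at, which marks probes that can read more than 1 transcript.

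Dnmt3l, the catalytically inactive cofactor, had 1 probe set, which read 9.95 with the vector and 9.63 with the hairpin. It was lower by 0.32 on the log2 scale, the lowest difference of the 9 genes, and 6.18% of genes above the floor were lower still. The size equals 3.0 times the probe-set SD and 1.12 times the SD of probe sets of like signal. No second probe set repeats it, and the ID of this one ends in _s_at, which marks probes shared between transcripts.

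The maintenance genes differed by small amounts and in opposite directions. Uhrf1, the reader of hemi-methylated DNA, read 8.66 with the vector and 8.93 with the hairpin on its brighter probe set, and 7.84 and 8.11 on the second. Each gave a difference of 0.27, a 1.21-fold higher value in the shDAB2 clone, and 7.33% of genes were more positive. Dnmt1, which copies the mark, read 8.90 with the vector and 8.64 with the hairpin on its brighter probe set, and 8.66 and 8.57 on the second. Its differences were -0.26 and -0.08, the same direction on both with a gap of 0.18, and neither reached the lower limit. The IDs of these probe sets end in _a_at and _x_at, which mark probes that can read more than 1 transcript.

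**Figure D2:**
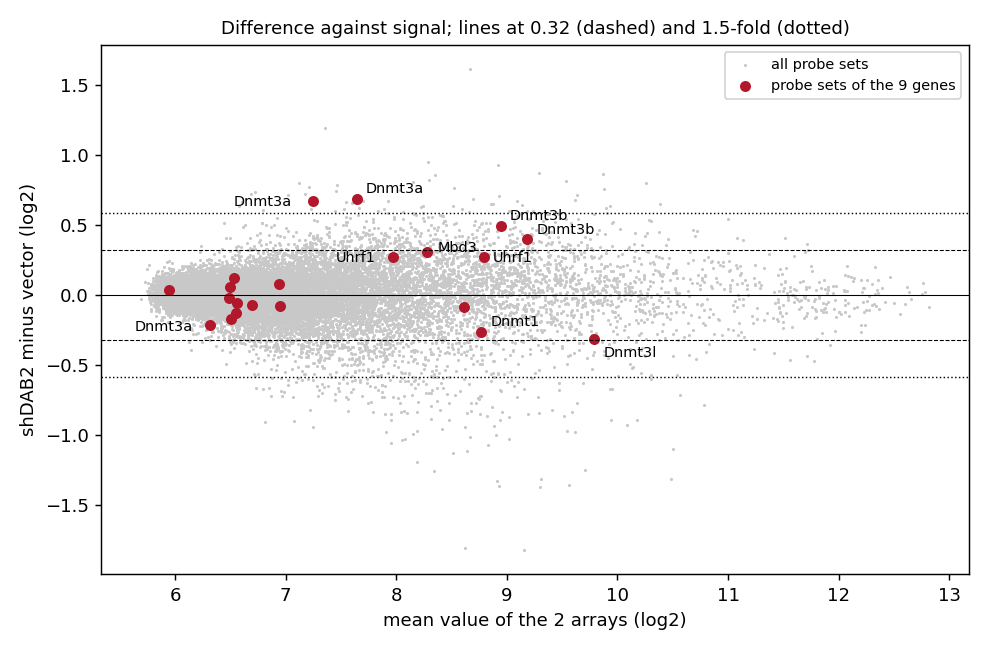
Difference between the clones (shDAB2 minus vector, log2) against the mean of the 2 arrays (log2) for all 22626 probe sets (grey) and the 21 described here (red, labelled where past 0.2 in size), with lines at the lower limit of 0.32 (dashed) and at 1.5-fold (dotted). The Dnmt3a probe sets at 0.69 and 0.67 stand at the upper edge of the cloud, the Dnmt3b ones at 0.40 and 0.49 inside its upper part, and the remaining ones within the dashed lines.

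Of the methyl-CpG-binding domain genes, Mbd3 gave the largest difference. Its 1 probe set read 8.12 with the vector and 8.43 with the hairpin, higher by 0.30 or 1.235-fold, with 5.78% of genes more positive. Mbd2, whose product is the alternative to MBD3 in the NuRD complex, read 6.99 and 6.91 on its brighter probe set and 6.73 and 6.66 on the second. Both differences, -0.08 and -0.07, were below the probe-set SD. Mbd4, a DNA glycosylase that repairs mismatches at methylated CpGs, read 6.90 with the vector and 6.98 with the hairpin, a difference of 0.07 that is also below it.

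Mbd1, a reader that represses methylated promoters, stayed at the dim end. Its 5 probe sets ran from 5.93 to 6.61 over both arrays, so even the highest fell just short of the floor. Their differences ran from -0.13 to 0.06, with 2 higher and 3 lower. A difference in Mbd1 was not measurable at this signal. RMA is known to compress the differences of dim probe sets, so the folds of Mbd2 and Mbd4, which are not far above the floor, may be understated too.

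The chromosomes around the genes were examined because a gain or loss of a segment in 1 clone would move neighbours together. This look was chosen after the values were seen, and used up to 10 genes above the floor on each side in RefSeq order. Whether a segment was gained or lost was not tested. Few of all genes differ as far as the genes described here, so the neighbour counts cannot decide it. Around Dnmt3a, which lies near the start of chromosome 12, the 13 such genes had a median difference of -0.05 and a range of -0.51 to 0.35, and 0 of them reached the Dnmt3a value. Around Dnmt3b on chromosome 2 the 20 neighbours ran from -0.25 to 0.27 with a median of -0.09, and 0 reached Dnmt3b. Around Uhrf1 on chromosome 17 they ran from -0.30 to 0.23, and 0 reached Uhrf1. Around Mbd3 on chromosome 10 the median was -0.05, and 1 of 20 was higher than Mbd3, its next measured neighbour Uqcr11 at 0.50. For the genes that read lower, the 20 neighbours of Dnmt3l on chromosome 10 ran from -0.45 to 0.43 with a median of 0.01, and 18 of them lay above Dnmt3l; Agpat3 at -0.45 and Cstb at -0.33 lay below it. The 20 neighbours of Dnmt1 on chromosome 9 ran from -0.14 to 0.22, and all 20 lay above Dnmt1. Over all genes above the floor, 0.25% were more positive than Dnmt3a, 2.68% than Dnmt3b, 7.33% than Uhrf1 and 5.78% than Mbd3. In the lower direction, 6.18% were more negative than Dnmt3l and 8.71% than Dnmt1, so the neighbour counts are close to these shares.

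**Figure D3:**
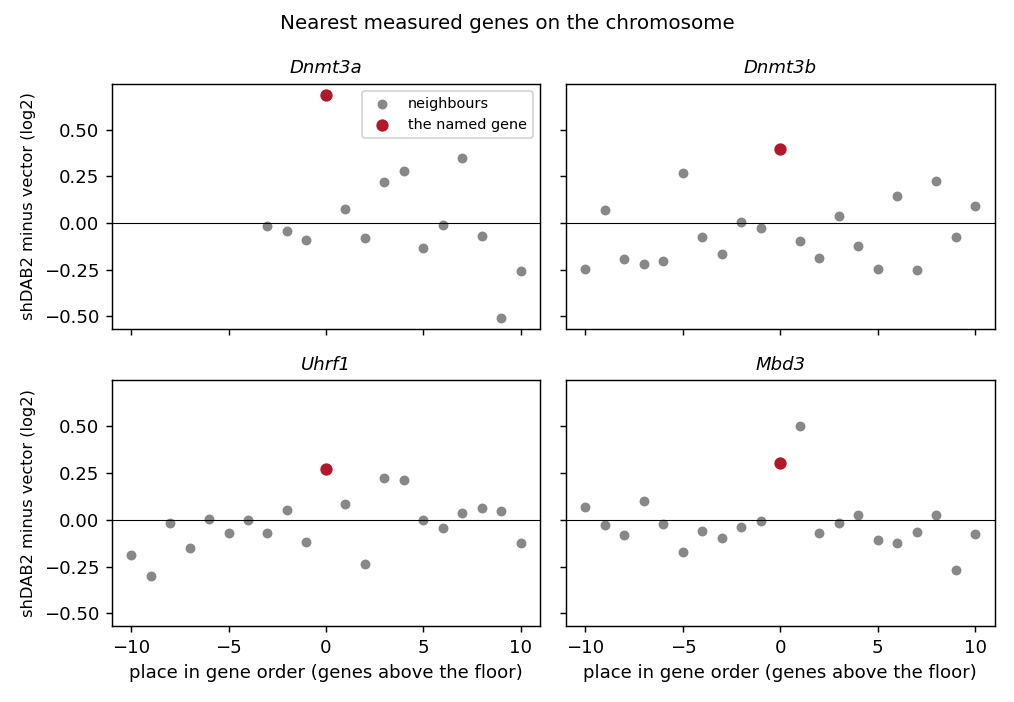
Difference between the clones (shDAB2 minus vector, log2) of Dnmt3a, Dnmt3b, Uhrf1 and Mbd3 (red) and of the nearest genes above the floor on either side (grey), by place in gene order. Neighbours scatter around 0 with medians of -0.05, -0.09, -0.01 and -0.05, and Uqcr11 at 0.50 is the single grey point above its red one.

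The enzymes and readers work with partners that recruit them or share their complexes, and these were mixed. Of 32 listed partners and recruiters 24 were measured and 22 passed the floor; 15 read higher, 7 lower, and their median was 0.08. Past the lower limit 4 (18.2%) were higher and 1 (4.5%) lower, beside 4.91% and 6.07% of all genes, the shares to read the counts of the lists below against as well. Daxx, a histone chaperone, differed by 0.48, and Ctcf, the insulator protein gene, by 0.47, though only by 0.12 on its second probe set. Pcna, the replication clamp that DNMT1 binds, read 11.31 and 11.71, a difference of 0.40. Hells, the remodeller needed for full DNA methylation, read 8.40 and 8.78, a difference of 0.38. Ehmt2, the histone methyltransferase G9a, differed by -0.35 and by -0.37 on its second probe set.

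Genes of the NuRD complex, in which MBD2 and MBD3 act, showed no common direction. Of 12 measured genes, all above the floor, 7 read higher and 5 lower, and the median was 0.01. Cdk2ap1, a small subunit, was the 1 gene of 12 (8.3%) higher past the lower limit, at 0.35 and 0.45 on its brighter probe sets. Mta1, a subunit gene of the metastasis-associated family, was the 1 gene of 12 (8.3%) past it in the other direction, at -0.40.

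Genes of DNA demethylation, by oxidation or by base excision repair, were also mixed. Of 22 listed genes 15 were measured and 12 passed the floor; 7 read higher, 5 lower, and their median was 0.01. Past the lower limit 1 of 12 (8.3%) was higher and 1 (8.3%) lower. Apex1, a base excision repair endonuclease with many other roles, differed by 0.58 and 0.67, just short of 1.5-fold on its brightest probe set. Idh2, a mitochondrial enzyme whose product is a TET cosubstrate, differed by -0.44. Tet1, which oxidises methylated cytosine and is a main TET gene of these cells, read 7.27 with the vector and 7.35 with the hairpin, a difference of 0.08 that is below the probe-set SD. No probe set named for Tet2 or Tet3 alone was at hand.

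Genes listed around the methyl donor S-adenosylmethionine cover its synthesis, its recycling and its use, polyamine synthesis included. Of 17 listed genes 12 were measured and 10 passed the floor. Of these 7 read higher and 3 lower, and the median was 0.08. Srm, the spermidine synthase gene, was the only one of the 10 (10.0%) past the lower limit, at 0.43. A list of factors chosen around the Dnmt3 genes (microRNA processing, pluripotency transition and promoter-binding genes) had 14 of 15 measured genes past the floor, of which 8 read higher and 6 lower; the median was 0.07. Past the lower limit 3 of the 14 (21.4%) were higher, beside 4.91% of all genes: the homeobox gene Otx2 at 0.77, which also passed 1.5-fold (0.578% of all genes), and the embryonic genes Dppa4 and Dppa3 at 0.39 each. In the lower direction 0 of 14 were past it. DPPA3 protects methylated DNA in the early embryo and limits UHRF1. Lin28a, which blocks a microRNA family, differed by -0.29 on its brightest probe set and by 0.10 on the second, so its direction is not settled. Prdm14, a repressor of the Dnmt3 genes, had no probe set named for it alone.

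**Figure D4:**
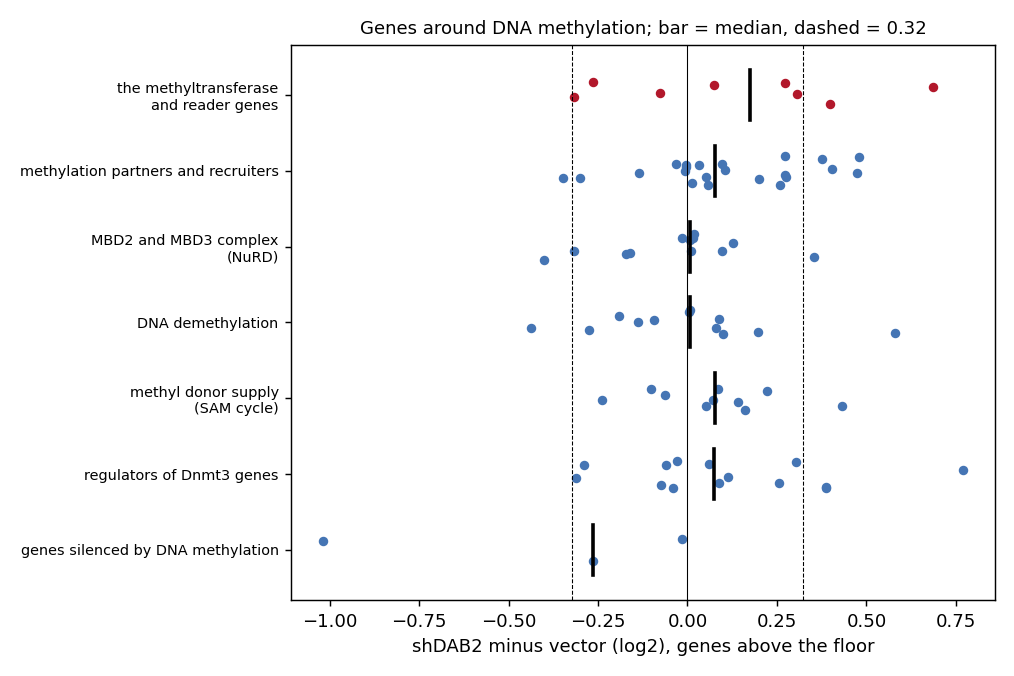
Difference between the clones (shDAB2 minus vector, log2) of each gene above the floor in the 8 methyltransferase and reader genes (red) and in 6 lists around DNA methylation (blue), with the median as a black bar. The medians run from -0.26, for a list of 3 genes, to 0.17 for the methyltransferase and reader genes, and every list but that of 3 genes has members on both sides of 0.

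Genes known to be silenced by DNA methylation in embryonic cells were almost all dim. Of 16 measured genes 3 were above the floor. Past the lower limit 1 of the 3 (33.3%) was lower, beside 6.07% of all genes, and 0 were higher. That gene was Rhox5, an X-linked homeobox gene whose promoter is methylated in many tissues. Unlike most of the list, it read as expressed in both clones. On its 1 probe set it read 9.18 with the vector and 8.16 with the hairpin, both above the floor, and was lower by 1.02 on the log2 scale. This also passed 1.5-fold, as 1.62% of all genes did in that direction. The meiotic gene Sycp3 differed by -0.26 and Mov10l1 by -0.02 (both named after their values were seen). Dazl, a germ cell gene, read 6.27 and 6.29 below the floor. Over all 16 genes the median difference was -0.0049. DNA methylation itself was not measured here.

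The targeted gene and the identity of the cells were checked on the same arrays. Dab2 was dim, at 6.64 with the vector and 6.33 with the hairpin on its brightest probe set, a difference of -0.31, and at -0.05 and -0.01 on the others, both below the floor. All 8 embryonic stem cell markers (Pou5f1, Sox2, Nanog, Zfp42, Esrrb, Utf1, Tdgf1 and Dppa5a) were above the floor and differed by -0.24 to 0.21. Of 9 fibroblast markers 1 reached the floor, and 0 of 6 primitive endoderm and 0 of 5 mesoderm markers did. Of 6 trophectoderm markers 4 did, and all 4 were lower in the shDAB2 clone, with a median difference of -0.64. The keratin genes Krt18 and Krt7 differed by -1.32 and -0.82, larger in size than any difference of the 9 genes. The regulator Tfap2c differed by -0.47, and by -0.22 on its second probe set, and Hand1 by -0.02, while the regulators Cdx2 and Eomes were below the floor. Over all 6 the median value was 7.21 with the vector and 6.83 with the hairpin. Of 5 neural markers 3 were above the floor, Nes at -0.08, Tubb3 at 0.14 and Neurod1 at 0.50. The median difference was 0.14 over these 3 and 0.02 over all 5. Past the lower limit 1 of the 3 (33.3%) was higher, beside 4.91% of all genes. The part of these cell type differences in the results above was not tested. Actb, a common reference gene, differed by -0.06.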

How the data were processed

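RNA of 2 stably transfected E14tg2a clones was measured on 1 Affymetrix mouse 430A array each; groups come from the sample titles. Per the submitters' processing notes the authors' deposited log2 values were made with RMA; no source used here gives its version, probe set definitions or log base, and log2 was taken because the values run from 5.65 to 12.86. RMA makes the arrays' distributions alike, so a shift of most genes would not show. Probe sets were named from the supplied platform annotation: of 22626 probe sets 20380 carried 1 gene, 691 more than 1, and 1555 are unnamed here. Each gene took its probe set with the highest mean; the floor, fold limits and probe-set SD are defined in the text. No test was run with 1 array per group. The steps were tested on simulated data. Python 3.11.15, statsmodels 0.14.6 and R 4.3.3 with limma 3.58.1 (cyclic loess only) were used. The genes and lists were chosen with earlier results of these data known. Named genes outside the 9 are those of each list past the lower limit (at most 6 by size), a fixed set (Tet2, Tet3 and Prdm14 in it had no probe set of their own; 1 item is not reported here), Dab2 and Actb; markers of the cell type lists were named after their values were seen. No likeness of pattern between genes can be measured with 2 arrays. The alternatives were cyclic loess, centring, removal of the signal trend (lowess, span 0.3), the mean of a gene's probe sets, leaving out probe sets ending in _s_at, _x_at or _a_at, other floors and a 2-fold limit.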

Additional observations from a re-analysis of the deposited data

How the results depend on the processing

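No paired analysis was possible because each group holds 1 array, and for the same reason no replicate could be left out. Of 57 alternative values of the 9 genes' differences, 24 equal the reported value by construction (another floor, or the same probe set kept) and say nothing on stability. Of the other 33 the sign turned in 0, and 32 stayed within 0.11, the probe-set SD, of the reported value. The exception was Dnmt3a, at 0.22 with the mean of all its probe sets, which adds the 3 below the floor. That setting left 1 gene higher past the lower limit of 0.32 (Dnmt3b) and 0 at least 1.5-fold higher. Leaving out _s_at, _x_at and _a_at probe sets also left 1 gene higher past it (Dnmt3a), since it removes Dnmt3b, and gives Dnmt1 and Dnmt3l no value. Cyclic loess, centring and removal of the signal trend each put 1 gene past it on the lower side, Dnmt3l. With a 2-fold limit 0 genes were higher. A floor at the 75th percentile, 7.33, leaves out Mbd2 and Mbd4, and moved the median of the factors chosen around the Dnmt3 genes to 0.18. With no floor the median of the genes silenced by methylation was -0.0049, as its dim members lie near 0; of 41 alternative list medians 7 changed sign, all of the NuRD and demethylation lists, whose medians were 0.01.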
